A study of Mus musculus with 12 samples.

Results

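A set of 10 cytokine genes of eosinophils was followed through the α4β7+, α4β7− CD22−, and CD22+ subsets of the small intestine (SI). They were Il4, Il6, Il13, Il1a, Il1b, Il1rn, Il16, Tnf, Osm, and Tgfb1, chosen by gene symbol, and they are 10 of the 36047 genes measured. RNA sequencing was done on 12 libraries, 4 per subset. The cells came from wild type C57BL/6J mice that the sample labels describe as female, whereas the study's methods state that male and female mice aged 6 to 12 wk were used. Each library came from the proximal SI lamina propria of 2 mice that were pooled, and eosinophils were sorted as live, CD45+ CD11b+ SiglecF+ MHCII− Ly6G− cells and divided by α4β7 and CD22. The α4β7+ group carried the gut-homing integrin α4β7 at its surface, the CD22+ group carried the lectin CD22, and the α4β7− CD22− group carried neither. No group received a treatment, and the 3 subsets came from the same tissue. The study took the 3 subsets as approximate stages of eosinophil age in the SI, with α4β7+ first and CD22+ last, so the comparisons ask how cytokine transcripts differ along that order.

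Cytokines are secreted proteins through which leukocytes direct each other and the tissue around them. IL-4 and IL-13 drive type II immunity, the response to helminths and allergens, and their genes are neighbours that Th2 cells and innate lymphoid cells transcribe together. IL-6 and oncostatin M belong to one family and signal through the shared receptor chain gp130, while TNF and the IL-1 proteins activate NF-κB in the cells that bind them. IL-1α and IL-1β are agonists of the same receptor, and the IL-1 receptor antagonist, encoded by Il1rn, occupies that receptor without signaling. IL-16 is cut from a larger precursor and attracts cells that carry CD4, and TGF-β1 is secreted in a latent form and restrains inflammation. Many cytokine mRNAs carry ATTTA repeats (AUUUA in the RNA) in the 3′ untranslated region (UTR), to which decay factors such as tristetraprolin, the product of Zfp36, bind. Mature eosinophils are known to hold stores of several cytokines in their granules, so a transcript level is not a measure of the protein they can release.

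The genes lie on 5 chromosomes of GRCm38. Il4 (chromosome 11, 53602982 to 53618669, 4 exons in its main transcript) and Il13 (chromosome 11, 53631324 to 53634702, 4 exons) are 12655 bases apart on the minus strand. Osm is on the same chromosome (4236420 to 4241026, 3 exons). Il1a (chromosome 2, 129299610 to 129309972, 7 exons) and Il1b (chromosome 2, 129364570 to 129371139, 7 exons) are 54598 bases apart on the minus strand, and Il1rn lies elsewhere on the same chromosome (24336853 to 24351494, 5 exons). Il6 is on chromosome 5 (30013114 to 30019981, 5 exons), Tnf on chromosome 17 (35199381 to 35202007, 4 exons), Il16 on chromosome 7 (83642825 to 83745726, 19 exons), and Tgfb1 also on chromosome 7 (25687002 to 25705077, 7 exons).

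The densest ATTTA stretch of the 3′ UTR is shown for the 7 genes that held at least 2 copies, because both members that rose and members that fell held them. The sequences were read from GENCODE transcripts of GRCm38, the capitals mark ATTTA, and overlapping copies run together.
Tnf: ATTTAttATTTATTTAttATTTATTTA
Il1b: ATTTATTTAtgtATTTA
Il4: ATTTAtatATTTA
Il6: ATTTAttgataATTTA
Osm: ATTTAtaaggcctATTTA
Il1a: ATTTAtaaatatATTTA
Il13: ATTTAttatggttgtgtgttATTTA
The Tnf stretch held 5 copies in 27 bases (bases 440 to 466 of the UTR) and the Il1b stretch 3 copies in 17 bases (205 to 221). Over the whole UTR, Tnf held 8 ATTTA in 764 bases, Il6 held 6 in 427 bases, Osm 6 in 1017 bases, Il1b 4 in 459 bases, Il1a 3 in 1101 bases, Il13 3 in 741 bases, and Il4 2 in 104 bases. Tgfb1 held 1 in 135 bases, and none was found in the 1864 bases of Il1rn or the 1064 bases of Il16. The longer TATTTAT occurred 8 times in Tnf and 3 times each in Il1b, Il1a, and Osm, and 4.33% of the 13708 tested genes with an annotated 3′ UTR held at least 3. Per kilobase, Il4 (19.2), Il6 (14.1), Tnf (10.5), Il1b (8.71), Tgfb1 (7.41), Osm (5.90), Il13 (4.05), and Il1a (2.72) stood above the median of those genes, which was 1.34. At least 1 ATTTA was found in 68.9% of those genes and at least 2 in 50.2%. The repeats occurred in Il1b, which was higher in both other subsets than in α4β7+, in Il4, Il6, Tnf, and Osm, which were lower, in Il1a, which was lower in CD22+, in Tgfb1, which passed no test, and in Il13, which was not tested.

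The RefSeq promoters (GRCm38.p6, from 250 bases before to 50 after a start site) are shown for Il6 and Tnf, which fell, and for Il1b, which rose. The capitals mark matches to the motifs searched on both strands, which were NF-κB (by its name), AP-1 (TGA, then any 1 base, then the letters TCA), CRE (TGACGTCA), the letters AGATAA for the GATA factors, STAT (TTC, then any 3 bases, then the letters GAA), and the letters TATAAA for the TATA box.
Il6, chr5:30012864-30013163, plus strand: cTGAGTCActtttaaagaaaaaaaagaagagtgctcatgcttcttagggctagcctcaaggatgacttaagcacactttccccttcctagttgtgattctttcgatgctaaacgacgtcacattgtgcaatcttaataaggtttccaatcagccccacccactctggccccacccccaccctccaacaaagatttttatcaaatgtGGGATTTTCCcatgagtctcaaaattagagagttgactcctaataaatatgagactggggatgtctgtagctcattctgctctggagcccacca
Tnf, chr17:35201958-35202257, minus strand: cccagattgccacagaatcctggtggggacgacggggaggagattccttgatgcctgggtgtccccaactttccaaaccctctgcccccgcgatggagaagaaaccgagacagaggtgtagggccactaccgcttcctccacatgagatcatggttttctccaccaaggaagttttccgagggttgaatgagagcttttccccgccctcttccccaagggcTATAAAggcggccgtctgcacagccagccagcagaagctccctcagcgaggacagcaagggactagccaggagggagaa
Il1b, chr2:129371090-129371389, minus strand: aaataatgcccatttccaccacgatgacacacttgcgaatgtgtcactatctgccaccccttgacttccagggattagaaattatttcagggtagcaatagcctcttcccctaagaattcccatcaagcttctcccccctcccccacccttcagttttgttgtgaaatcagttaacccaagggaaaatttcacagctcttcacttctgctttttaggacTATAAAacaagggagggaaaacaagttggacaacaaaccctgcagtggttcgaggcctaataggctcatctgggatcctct
In Il6, an NF-κB match lay from −44 to −35 and an AP-1 match from −249 to −243 relative to the start site. Of 32851 promoters of this length, 8.46% held an NF-κB match, 7.81% an AP-1 match, 13.6% a TATA match, 8.3% a STAT match, and 11.2% a GATA match. The Tnf and Il1b windows held the TATA letters alone of the 6 motifs. In all, 9 of the 10 members matched 14 promoters, with NF-κB matches also in Tgfb1 and Il16, AP-1 matches in Il1a, Il1rn, and Il16, TATA matches in Il1a, Il1rn, and Il13, a STAT match in Il4, and a GATA match in Il13. A match is a run of letters and not a measured binding site.

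The 12 libraries held sums of 14286474 to 16915755 normalized counts and 19760 to 21960 genes above 0. A normalized count is a read count that Kallisto estimated and DESeq2 divided by a library factor, and 3 reads, used as the floor of detection, corresponded to 2.56 to 3.48 normalized counts. The eosinophil markers were present in every library, with all 13 above the floor and summed levels of 165666 to 185066 in α4β7+, 140973 to 155740 in α4β7− CD22−, and 124131 to 140664 in CD22+. The largest of them were Ptprc (mean of 54220) and Itgam (32649), which other leukocytes also carry, while Epx averaged 116 and Prg2 216. The p-values measure the spread between these 12 libraries, and whether the 3 subsets were sorted from the same pools of mice is not stated. In sorted bulk RNA, fewer cells making a transcript and less of it per cell cannot be told apart.

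Compared with α4β7+ eosinophils, α4β7− CD22− eosinophils had less Il6, Tnf, Osm, and Il4 and more Il1b. Of the 9 members tested, 5 passed both thresholds (in limma, a fold change of 1.5 or more with an adjusted p not above 0.05), 1 higher and 4 lower, against 8.05% of all 15249 genes tested (3.7% called higher and 4.35% called lower). The median log2 fold change was −0.38 over the 9 members and 0.003 over all genes. CD22+ eosinophils differed from α4β7+ in the same 5 members and also had less Il1a, which made 6 of 9 called, 1 higher and 5 lower, against 12% of all genes (5.6% higher and 6.39% lower), with medians of −0.61 and 0.014. Between CD22+ and α4β7− CD22− eosinophils, 3 of 9 were called, all lower in CD22+ (Il4, Il6, and Osm), against 0.603% of all genes (0.21% higher and 0.393% lower), with medians of −0.49 and −0.001. Il6 was under the filter of 10 normalized counts in both of these subsets and was tested only through its α4β7+ level, and without it 2 of 8 members were called. With any 1 of the 8 libraries of these subsets left out, 0 or 1 member was called, and a replicate block left 2. Both first comparisons use the same α4β7+ libraries. Il13, whose mean was below the filter of 10 normalized counts, was not tested.

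**Figure D1:**
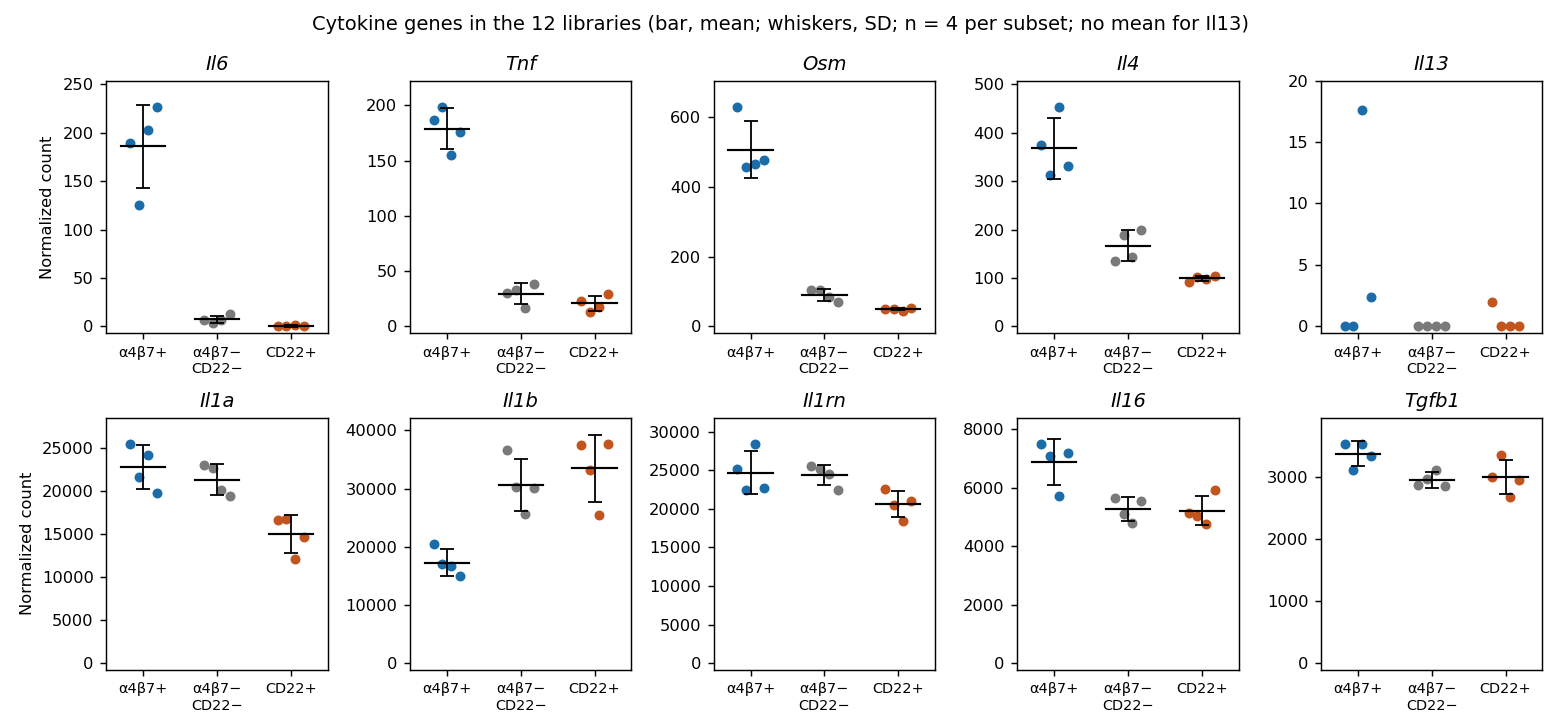
Normalized counts (vertical axes, linear and starting near 0) of the 10 cytokine genes in the 12 libraries, by subset; points are libraries, bars the mean, and whiskers the SD of 4 libraries, with no mean drawn for Il13. Il6, Tnf, Osm, and Il4 are highest in all 4 α4β7+ libraries, whereas Il1b is lowest in them.

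Il6 showed the widest difference. It had 189, 126, 203, and 226 normalized counts in α4β7+ replicates 1 to 4 and 6.82, 3.36, 7.17, and 12.5 in the α4β7− CD22− libraries. In CD22+ eosinophils it was listed at 0.673, 0, 1.28, and 0, all under the floor. The 3 subsets did not overlap. Means were 186 ± 43.0 and 7.45 ± 3.75 (SD, n = 4) in the first and second subset, a log2 fold change of −4.55 ± 0.475 (SE, adjusted p = 1.34e-05). Over the 9 alternative analyses this log2 fold change ran from −4.73 to −3.48. CD22+ eosinophils were called lower than α4β7+ (adjusted p = 7.48e-08) and lower than α4β7− CD22− (adjusted p = 0.0214), although both of these subsets lay under the filter of 10 normalized counts. Because the CD22+ libraries lay under the floor, the size is a bound. Against 3 reads per library, averaged over the subset, the Il6 level of CD22+ eosinophils was at least 65.3-fold lower than that of α4β7+ and at least 2.62-fold lower than that of α4β7− CD22−. The step from α4β7− CD22− to CD22+ rests on few reads, and with a pseudocount of 10 it was not called (log2 fold change −0.71, adjusted p = 0.257), nor was it with no filter (adjusted p = 0.0535) or a filter at 50 (adjusted p = 0.091). With only the subsets compared in the model it could not be tested. It was also not called without α4β7− CD22− replicate 1, 3, or 4 or CD22+ replicate 2 or 4 (adjusted p from 0.0515 to 0.0606).

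Osm, whose product shares gp130 with IL-6, had 628, 458, 466, and 477 normalized counts in the α4β7+ libraries, 103, 104, 83.9, and 70.6 in α4β7− CD22−, and 48.7, 51.0, 45.2, and 52.8 in CD22+ eosinophils. Each subset lay wholly below the one before it. The means were 507 ± 80.9, 90.5 ± 16.2, and 49.4 ± 3.26 (SD, n = 4). Against α4β7+, the log2 fold change was −2.48 ± 0.171 (adjusted p = 3.23e-07) in α4β7− CD22− and −3.32 ± 0.171 (adjusted p = 4.87e-09) in CD22+ eosinophils. CD22+ was lower than α4β7− CD22− by a log2 fold change of −0.84 ± 0.171 (adjusted p = 0.0285), a call that was lost without α4β7− CD22− replicate 1, 2, or 3 or any of the CD22+ replicates (−0.77 to −0.87, adjusted p from 0.0564 to 0.106) and when the α4β7+ libraries were left out of the model altogether (adjusted p = 0.112). The α4β7− CD22− level was also compared with the midpoint of the α4β7+ and CD22+ levels on the log2 scale, and Osm was the only tested member that passed, with a difference of −0.82 ± 0.148 (adjusted p = 0.0144), against 1.23% of all genes called in that contrast (0.669% higher and 0.557% lower). Most of its fall thus lay between α4β7+ and α4β7− CD22−. That contrast was not called without α4β7− CD22− replicate 3 (adjusted p = 0.0542) or replicate 4 (adjusted p = 0.0513).

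Tnf had 187, 198, 155, and 176 normalized counts in the α4β7+ libraries, 30.2, 33.1, 16.8, and 38.5 in α4β7− CD22−, and 23.1, 13.3, 17.5, and 29.5 in CD22+ eosinophils. The α4β7+ libraries stood apart from all others, and the other subsets overlapped. The means were 179 ± 18.4, 29.7 ± 9.23, and 20.9 ± 7.0 (SD, n = 4). Against α4β7+, the log2 fold change was −2.61 ± 0.301 (adjusted p = 3.34e-05) in α4β7− CD22− and −3.09 ± 0.301 (adjusted p = 2.91e-06) in CD22+. Between CD22+ and α4β7− CD22− the difference was −0.49, with a 95% interval from −1.13 to 0.16 (adjusted p = 0.694). The departure of α4β7− CD22− from the midpoint was −1.06 ± 0.261 and did not pass the test (adjusted p = 0.0676), whereas it passed without CD22+ replicate 2 (−1.15, adjusted p = 0.0454) and with a pseudocount of 10 (−0.96, adjusted p = 0.0283).

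Il4 had 375, 312, 453, and 332 normalized counts in the α4β7+ libraries, 136, 189, 144, and 199 in α4β7− CD22−, and 91.5, 102, 98.0, and 105 in CD22+ eosinophils. All 3 subsets were separate. The means were 368 ± 62.2, 166.9 ± 31.7, and 99.3 ± 5.95 (SD, n = 4). The log2 fold change against α4β7+ was −1.14 ± 0.164 (adjusted p = 0.000245) in α4β7− CD22− and −1.87 ± 0.164 (adjusted p = 1.01e-06) in CD22+ eosinophils. The step from α4β7− CD22− to CD22+ was −0.73 ± 0.164 and sat at the threshold (adjusted p = 0.0496), and it was not called in 6 of the 9 other analyses or in 11 of the 12 with 1 library left out (all but α4β7+ replicate 3, adjusted p from 0.0518 to 0.17). One of those analyses took the replicate number as a block, and there the adjusted p of this step was 0.0877. Il4, Il6, and Osm were the 3 members that fell from subset to subset with no overlap between libraries, a pattern found in 1.61% of all genes tested. Il6 was under the filter in both later subsets and under the floor in CD22+, and without it 2 of 8 members showed the pattern. The opposite pattern, a rise without overlap, was found in 0.905% of genes and in no member.

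Il13, the neighbour of Il4 and its usual partner in type II immunity, was nearly absent. It was listed at 0, 0, 17.6, and 2.31 normalized counts in the α4β7+ libraries, at 0 in all 4 α4β7− CD22− libraries, and at 1.96, 0, 0, and 0 in CD22+ eosinophils. It rose above the floor of 3 reads in α4β7+ replicate 3 alone. In that library Il4 was at its highest value, 453 normalized counts. The summed T cell and innate lymphoid cell markers of that library were 1894, the lowest of the 4 α4β7+ libraries, although Il2ra among them was at its highest there (69.3 normalized counts). Of the mast cell and basophil markers, Fcer1a (0.926) and Tpsab1 (1.39) were above 0 in no other α4β7+ library, both under the floor. Kit, well above the floor, was also at its highest of the α4β7+ libraries in replicate 3 (99.3 normalized counts). Gzmb (319) and the sum of the list (421) were not at their highest there, and Ms4a2 was listed at 0 in replicates 1 and 3. The part of these cells in the Il13 value was not tested.

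The IL-1 family genes had the highest counts of the members and moved differently from those above. Il1b had 20476, 17028, 16669, and 15004 normalized counts in the α4β7+ libraries, 36633, 30197, 25672, and 30031 in α4β7− CD22−, and 37424, 33263, 25449, and 37651 in CD22+ eosinophils. Every α4β7+ library lay below every other library. The means were 17294 ± 2297, 30634 ± 4515, and 33447 ± 5700 (SD, n = 4), and the log2 fold changes against α4β7+ were 0.82 ± 0.133 (adjusted p = 0.000635) and 0.94 ± 0.133 (adjusted p = 0.00011). CD22+ and α4β7− CD22− overlapped, with a difference of 0.12 and a 95% interval from −0.16 to 0.41 (adjusted p = 0.874). Il1b was the only member called higher in any comparison.

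Il1a, the other agonist gene, had 25504, 21705, 24180, and 19821 normalized counts in the α4β7+ libraries, 23059, 22753, 20187, and 19436 in α4β7− CD22−, and 16674, 16797, 12089, and 14627 in CD22+ eosinophils. The first pair of subsets overlapped and the CD22+ libraries lay below both. The means were 22802 ± 2536, 21359 ± 1817, and 15047 ± 2209 (SD, n = 4). The log2 fold change was −0.09 ± 0.108 (adjusted p = 0.648) in α4β7− CD22− and −0.61 ± 0.108 (adjusted p = 0.000853) in CD22+ eosinophils against α4β7+. From α4β7− CD22− to CD22+ it was −0.51 ± 0.108, which passed the p threshold (adjusted p = 0.0352) and missed the fold threshold. The call against α4β7+ lay close to the fold threshold and was lost when the values were rescaled by the 75th percentile (−0.57) or quantile normalized (−0.29), and without α4β7+ replicate 1 (−0.55), α4β7+ replicate 3 (−0.57), or CD22+ replicate 3 (−0.50). Of the 31-base stretches in Il1a transcripts, 10% also occurred in other genes, most often Gm14023, so that part of its reads could be split between them.

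Il1rn, which encodes the receptor antagonist, had 25160, 22422, 28388, and 22731 normalized counts in the α4β7+ libraries, 25519, 25096, 24442, and 22461 in α4β7− CD22−, and 22530, 20513, 18391, and 21028 in CD22+ eosinophils. All pairs of subsets overlapped. The means were 24675 ± 2761, 24380 ± 1354, and 20615 ± 1712 (SD, n = 4). No comparison was called, with log2 fold changes of −0.01 (adjusted p = 0.95), −0.26 (adjusted p = 0.0417, under the fold threshold), and −0.24 (adjusted p = 0.276) in the order used above. Under quantile normalization the first and second of these became positive (0.15 and 0.09) and were not called.

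Ratios between these genes within a library do not depend on how libraries were scaled to each other, and they are given as a description with no test. The ratio of Il1rn to Il1b normalized counts was 1.23 to 1.70 in α4β7+, 0.697 to 0.952 in α4β7− CD22−, and 0.559 to 0.723 in CD22+ libraries. The antagonist transcript thus had the larger count in all 4 α4β7+ libraries and the smaller in all 8 others, and the α4β7− CD22− and CD22+ ranges overlapped. The ratio of Il1b to Il1a was 0.689 to 0.803, 1.27 to 1.59, and 1.98 to 2.57 in the 3 subsets, which did not overlap. The ratio of Il1rn to Il1a was 0.987 to 1.17, 1.10 to 1.21, and 1.22 to 1.52. The CD22+ libraries lay above both other subsets in this ratio, while the other subsets overlapped. These are ratios of counts, in which a longer transcript yields more reads, so a ratio above 1 says nothing about which transcript had more copies.

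**Figure D2:**
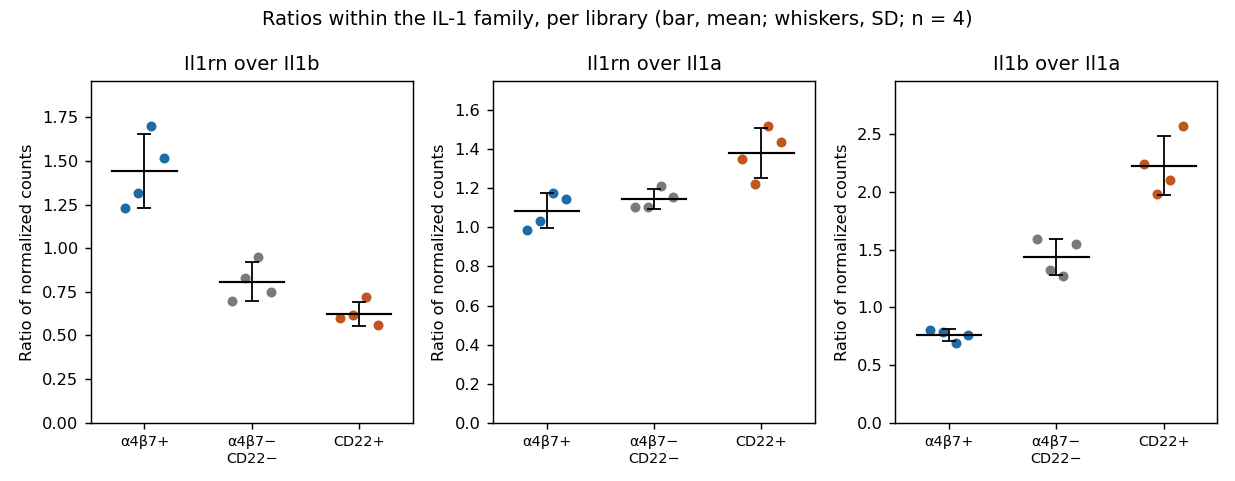
Ratios of normalized counts between IL-1 family genes (vertical axes, linear from 0) in each library, by subset; points are libraries, bars the mean, and whiskers the SD of 4 libraries. Il1rn over Il1b is above 1 in the 4 α4β7+ libraries and below 1 in the other 8, and Il1b over Il1a rises from 0.689 to 0.803 in α4β7+ to 1.98 to 2.57 in CD22+.

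Il16 and Tgfb1 were not called in any comparison. Il16 had 5727 to 7491 normalized counts in the α4β7+ libraries, 4783 to 5648 in α4β7− CD22−, and 4746 to 5916 in CD22+ eosinophils, with means of 6872 ± 783, 5269 ± 405, and 5210 ± 499 (SD, n = 4). The α4β7− CD22− libraries lay below the α4β7+ libraries, and the CD22+ libraries overlapped with both. Its log2 fold changes against α4β7+, −0.38 (adjusted p = 0.0132) and −0.40 (adjusted p = 0.0068), passed the p threshold and missed the fold threshold. Stard5, on the opposite strand, overlaps Il16 and shares 31-base stretches with its transcripts, and 16.6% of the Il16 stretches also occurred in another gene. The kit marks strand, and whether the counting used it is not given in the sources used here. Stard5 itself averaged 231.7, 231.9, and 224.5 normalized counts in the 3 subsets. Tgfb1 had 3112 to 3529, 2852 to 3115, and 2680 to 3353 normalized counts, with means of 3376 ± 197, 2950 ± 121, and 2995 ± 276. All pairs of subsets overlapped, and none of its comparisons passed the test (adjusted p from 0.108 to 0.973).

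**Figure D3:**
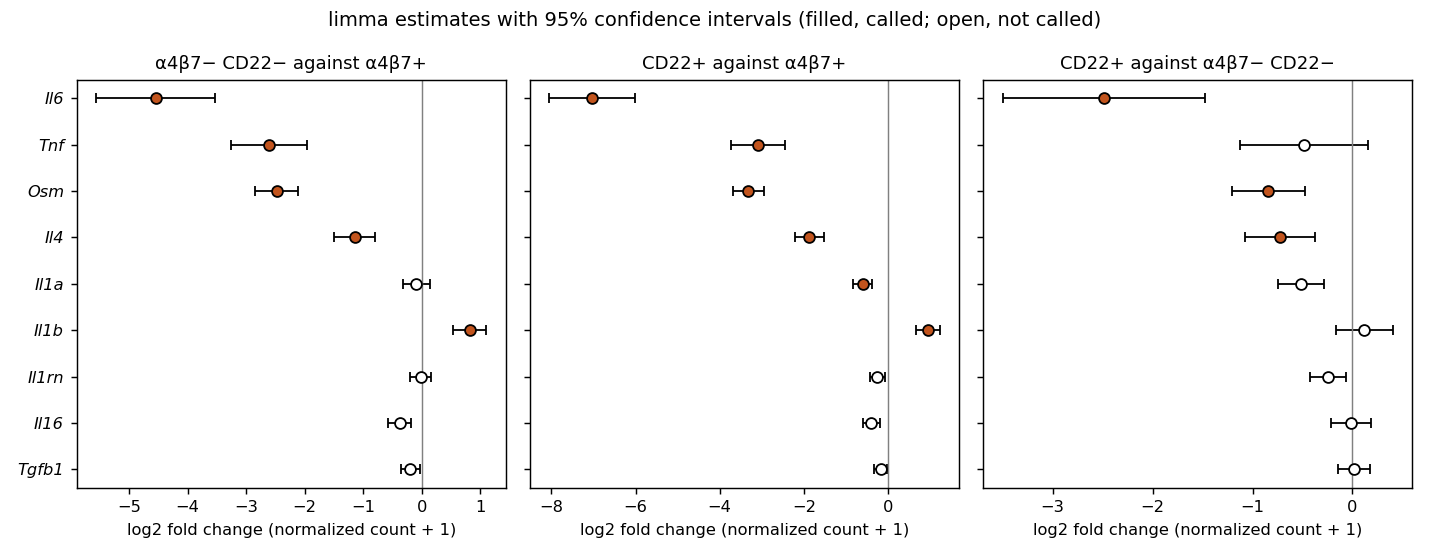
log2 fold changes (horizontal axes) of the 9 tested cytokine genes in the 3 comparisons, on log2(normalized count + 1); points are limma estimates, lines 95% confidence intervals, and filled points passed both thresholds. Il6, Tnf, Osm, and Il4 lie left of 0 and Il1b right of 0 in both comparisons with α4β7+. The Il6 estimates, most of all those with CD22+, depend on the analysis settings, the pseudocount among them.

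Libraries without overlap between subsets were found for 6 of the 9 tested members in α4β7− CD22− against α4β7+ (18.8% of all genes), 6 in CD22+ against α4β7+ (22.9%), and 4 in CD22+ against α4β7− CD22− (6.37%). Those in the last comparison were Il4, Il6, Osm, and Il1a, and without Il6, which was under the filter in both subsets compared, they were 3 of 8.

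Levels of different genes were compared as mean normalized counts per kilobase of the longest coding transcript. In α4β7+ eosinophils, Il1b (12754 per kb), Il1a (11551), and Il1rn (9974) ranked 47, 59, and 79 among 15242 genes, and neighbours in this order overlapped between libraries. Tgfb1 (1552), Il16 (1306), Il4 (608), Osm (223), Tnf (109), and Il6 (79.4) followed, each separate from the next except Tnf and Il6. In α4β7− CD22− eosinophils Il1b stood alone at 22591 per kb with rank 12, followed by Il1a and Il1rn at ranks 52 and 60, which overlapped. In CD22+ eosinophils Il1b again had rank 12 (24666 per kb), and Il1rn (8333) and Il1a (7622) had exchanged places but overlapped. The lower part of the order was the same in all 3 subsets, from Tgfb1 (1377 per kb in CD22+) and Il16 (990.4) through Il4 (164), Osm (21.8), and Tnf (12.7) to Il6. Il4 thus moved from rank 1683 in α4β7+ to 3578 and 5309, and Osm from rank 4295 to 9373 and 11053. With the median transcript length in place of the longest, Il1rn became the highest member in α4β7+ (18184 per kb), and Il16 (3699.6) passed Tgfb1, so the order among close neighbours depends on the isoform chosen.

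**Figure D4:**
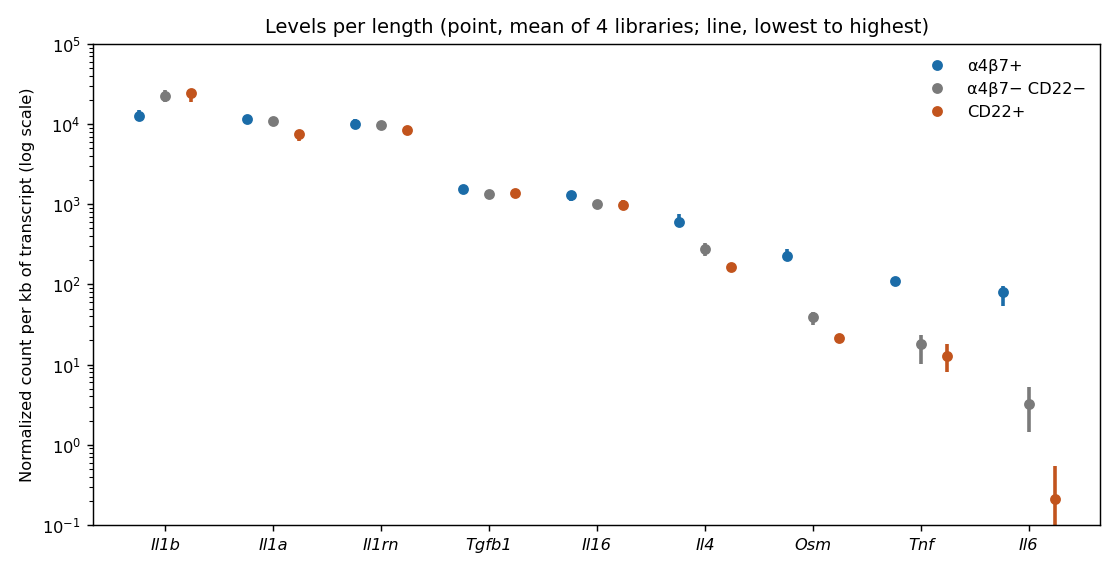
Normalized counts per kilobase of the longest coding transcript (vertical axis, log scale) of the 9 tested cytokine genes in the 3 subsets; points are means of 4 libraries and lines run from the lowest to the highest library. The IL-1 family genes stay the highest in all subsets, and Il6 falls from 79.4 per kb in α4β7+ to values under the detection floor in CD22+, where its line is cut at the axis because 2 libraries were at 0.

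The genes whose pattern over the 12 libraries was closest to each member were found by the root mean square difference of log2 values, each gene centred on its own mean. For Il6 they were Cd300ld3 (0.714), Clec4e, which encodes the C-type lectin Mincle (0.734), and Nfkbia (0.96). For Osm they were the activation marker Cd69 (0.306), Capg (0.307), and Aqp9 (0.342), and for Tnf they were Krt80 (0.345), Emp3 (0.385), and the phosphatase gene Dusp2 (0.386). For Il4 they were Lmo4 (0.195), Rgs18 (0.206), and Map4k4 (0.223). For Il1b they were Ptgs1, which encodes the cyclooxygenase COX-1 (0.101), Rims3 (0.116), and Acp5 (0.136), and for Il1a the closest gene was Bcl2a1a, of the BCL2 family (0.065). Bcl2a1a belongs to a family of near-identical copies whose reads can be split. For Il1rn, Il16, and Tgfb1 the closest genes were Vrk1 (0.06), Caprin1 (0.069), and Dennd5a (0.043). Among the members that fell, Tnf and Osm were closest to each other (0.411).

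Genes within 100000 bases of a member were examined as well, since cytokine genes often lie in clusters. Of 43 such genes tested, 5 were called in α4β7− CD22− against α4β7+ (3 higher and 2 lower), 10 in CD22+ against α4β7+ (7 higher and 3 lower), and none by limma in CD22+ against α4β7− CD22−, where 8.05%, 12%, and 0.603% of all genes were called. In the Il4 and Il13 cluster, Septin8 was higher in CD22+ than in α4β7+ (0.75 ± 0.214, adjusted p = 0.0208), and Rad50 and Kif3a were not called in any comparison. Rad50, whose last part holds control elements of this locus in T cells, averaged 986, 1041, and 964 normalized counts in the 3 subsets, and Kif3a averaged 131, 125, and 123. Lif, next to Osm and of the same cytokine family, averaged 18.7, 3.20, and 11.7 normalized counts and was called lower in α4β7− CD22− (adjusted p = 0.0223) but not in CD22+ eosinophils (adjusted p = 0.484). Its α4β7− CD22− libraries lay from 0.775 to 6.97 normalized counts, the lowest of them under the floor, so no fold change is given. Tbc1d10a, on the other side of Osm, rose by 0.68 ± 0.144 (adjusted p = 0.00487) and 0.88 ± 0.144 (adjusted p = 0.00039) on the log2 scale. Ltb, the lymphotoxin gene beside Tnf, averaged 503, 412, and 361 normalized counts and was not called, whereas the class I gene H2-D1 in the same region fell by 0.70 and 0.87 on the log2 scale (adjusted p = 5.74e-06 and 2.71e-07).

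Of 37 tested genes that regulate cytokine transcription, 2 were called higher and 9 lower in α4β7− CD22− against α4β7+, 2 higher and 13 lower in CD22+ against α4β7+, and 3 lower in CD22+ against α4β7− CD22−, with medians of −0.25, −0.38, and −0.14. Over all genes, 3.7% were called higher and 4.35% lower in the first comparison, 5.6% and 6.39% in the second, and 0.21% and 0.393% in the third, and these shares also stand beside the lists that follow. Nfkbia, the inhibitor of NF-κB that is itself an NF-κB target, averaged 16134 ± 1088, 1717 ± 111, and 466 ± 84.6 normalized counts (SD, n = 4). Its log2 fold change was −3.23 (adjusted p = 2.48e-10), −5.12 (adjusted p = 3.47e-13), and −1.89 (adjusted p = 2.23e-07). Fosl1, a subunit of AP-1, changed by −2.01, −3.60, and −1.59. Nfkbiz, a nuclear cofactor needed for Il6 induction in macrophages, fell by 1.01 on the log2 scale in α4β7− CD22− eosinophils. It averaged 12214.5, 6068, and 5265 normalized counts in the 3 subsets. Jun fell by 1.56 in CD22+ against α4β7+ and by 0.62 in CD22+ against α4β7− CD22−. Egr2 (1.36 and 1.73) and Gata2 (0.64 and 0.59) were higher in both subsets than in α4β7+.

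Of 23 tested genes for decay and stability of cytokine mRNA, 3 were lower in α4β7− CD22− (Zfp36, Zfp36l2, and Zc3h12a), and in CD22+ these 3 were lower and Zc3h12d was higher than in α4β7+. None was called by limma in CD22+ against α4β7− CD22−. Zfp36, whose product binds repeats of this kind and speeds decay, averaged 30020.4 ± 3301, 14207 ± 1094, and 9942 ± 1126 normalized counts (SD, n = 4). Binding to the ATTTA stretches printed above, which are runs of letters, was not tested. Against α4β7+, Zfp36 changed by −1.08 (adjusted p = 2.23e-06) and −1.59 (adjusted p = 1.55e-08) on the log2 scale. Zc3h12a, which encodes the endonuclease regnase, changed by −0.65 and −1.06, and Zfp36l2 by −0.71 and −0.83. The list medians were −0.06, −0.07, and 0.03, close to those of all genes.

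Of 17 tested genes for receptors and their partners, 3 were called higher and 2 lower in α4β7− CD22−, 3 higher and 1 lower in CD22+ against α4β7+, and none by limma in CD22+ against α4β7− CD22−. Il1r2, the decoy receptor that binds IL-1 without signaling, averaged 4384 ± 1378, 8623 ± 1368, and 6774 ± 883 normalized counts (SD, n = 4) and was higher in both subsets than in α4β7+ (1.01, adjusted p = 0.00122, and 0.67, adjusted p = 0.014). Il1r1, the signaling receptor, averaged 41.8, 11.1, and 24.7 normalized counts and was called lower in α4β7− CD22− eosinophils (log2 fold change −2.09 against α4β7+), with −0.88 in CD22+ (adjusted p = 0.394). Its libraries overlapped, from 21.9 to 68.8 in α4β7+ and from 4.02 to 28.9 in α4β7− CD22−. The accessory chain gene Il1rap averaged 332.5, 328.3, and 330.0 and was not called. Tnfrsf1a, a receptor of TNF, rose by 0.72 and 0.94, and Il13ra1 by 0.78 and 0.75, whereas Lifr fell by 1.27 in α4β7− CD22− and the tetraspanin gene Cd9 fell by 0.62 in CD22+ eosinophils.

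Of 28 tested genes for cytokine processing and release, 3 were called higher and 3 lower in α4β7− CD22−, 2 higher and 3 lower in CD22+ against α4β7+, and 1 lower in CD22+ against α4β7− CD22−. Casp1, which matures IL-1β, averaged 389.9, 382.8, and 416.9 normalized counts and was not called. Gsdme, a gasdermin that forms membrane pores when cut, averaged 175, 746, and 1145 normalized counts (log2 fold changes of 2.10 and 2.71 against α4β7+), and Casp4 changed by −1.05 and −1.33. Thbs1, an activator of latent TGF-β, averaged 33749, 10649, and 6100 normalized counts and was lower in each comparison (−1.66, −2.48, and −0.82), and Mmp9 changed by −0.66 and −1.01. Ltbp2 was higher by 1.63 and 2.40 and Ltbp1, which holds latent TGF-β in the matrix, by 0.75 in α4β7− CD22−.

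Of 57 other cytokine genes in the table, 23 passed the filter. Among these 3 were higher and 6 lower in α4β7− CD22−, 3 higher and 5 lower in CD22+ against α4β7+, and none was called by limma in CD22+ against α4β7− CD22−. Tgfb2 rose most, from 66.8 ± 42.1 to 322 ± 103 and 654 ± 203 normalized counts (SD, n = 4), with log2 fold changes of 2.37 and 3.40 against α4β7+. Il27, a subunit of the cytokine IL-27, rose from 140.1 to 393 and 482 normalized counts (1.48 and 1.78), and Clcf1 by 0.94 and 1.09. Mif (−0.75 and −1.14), Csf1 (−0.72 and −1.0), and Hbegf (−0.59 and −1.21) were lower. Il5, which sustains eosinophils, reached 2.33 normalized counts at most in α4β7+, under the floor, and was listed at 0 in the 8 other libraries.

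**Figure D5:**
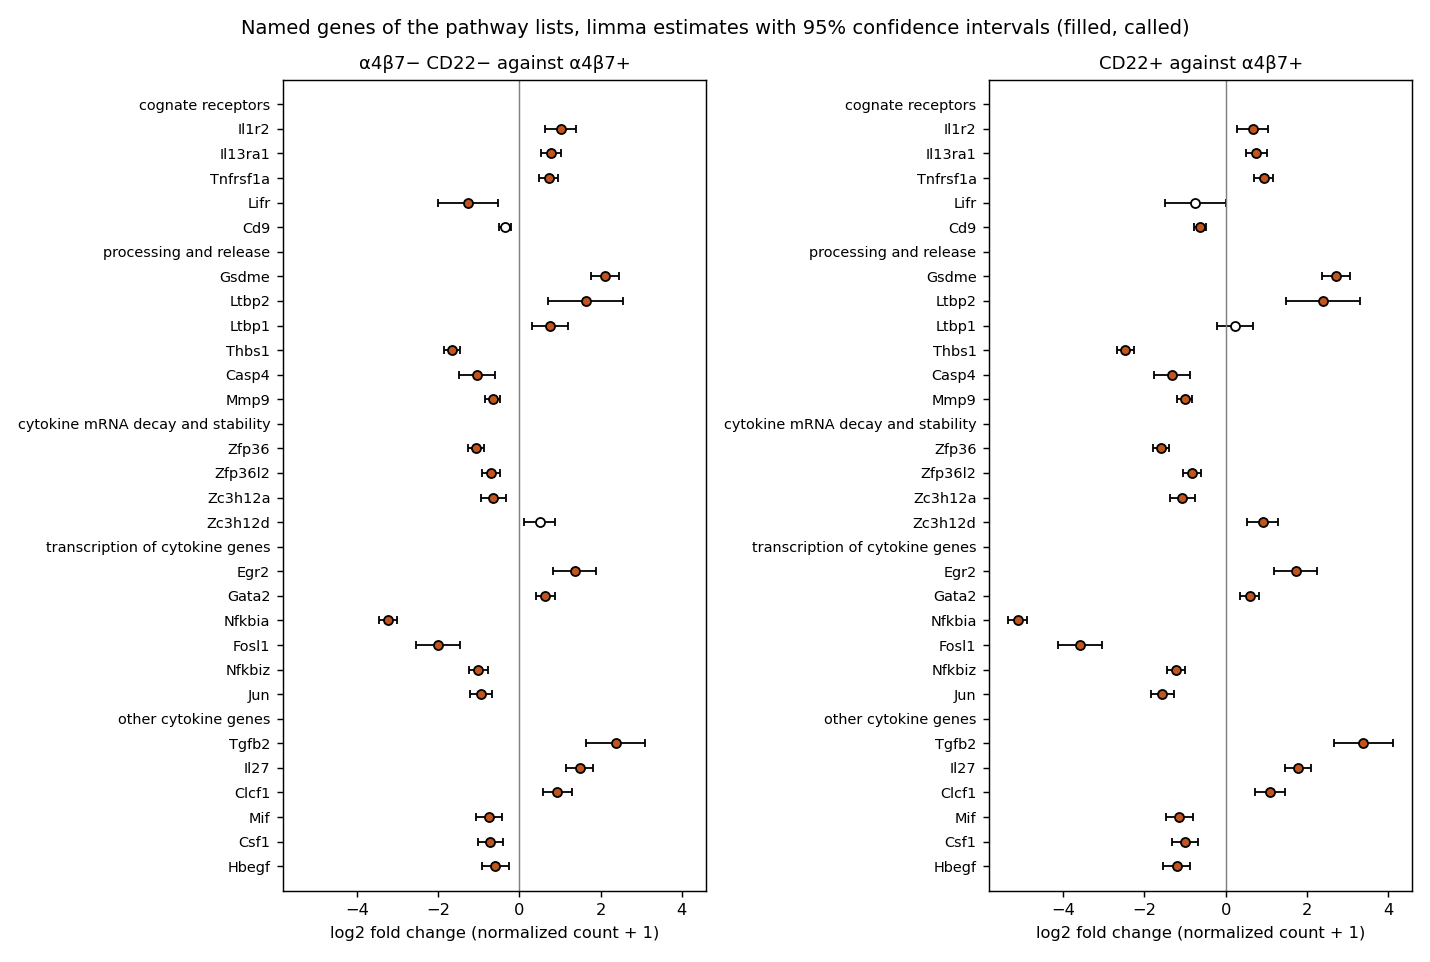
log2 fold changes (horizontal axes, log2 of normalized count + 1) of the genes named from 5 lists of receptors, processing, mRNA decay, transcription, and other cytokines, in α4β7− CD22− (left) and CD22+ (right) against α4β7+; points are limma estimates, lines 95% confidence intervals, and filled points passed both thresholds. Nfkbia reaches −3.23 and −5.12, and Tgfb2 reaches 2.37 and 3.40.

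Markers of other cells, some of which make the same cytokines, were set beside these results. For mast cells and basophils, sources of Il4 and Il13, 2 of 12 markers (Mcpt8 and Tpsb2) were at 0 in all libraries, 5 were above the floor in at least 1 library, and Kit and Gzmb averaged above 10. Ms4a2 reached 21.5 normalized counts in α4β7+ replicate 2 and Mcpt1 reached 9.27 in α4β7+ replicate 4, and neither passed the filter for testing. Gzmb, which cytotoxic lymphocytes also express, was called lower in α4β7− CD22− than in α4β7+ (log2 fold change −1.47, adjusted p = 0.00473). The list summed to 319 to 748, 204 to 364, and 272 to 512 normalized counts in the 3 subsets. For neutrophils, Elane was at 0 in all libraries and S100a8 reached 1.0 at most, while the list summed to 15175 to 22920, 7362 to 9403, and 4769 to 5172, most of it Retnlg. Of its 6 tested genes, Ngp and Cxcr2 were called higher and Retnlg lower in α4β7− CD22− against α4β7+. In CD22+ against α4β7+ Ngp and Cxcr2 were again higher and Retnlg, Mmp8, and S100a9 lower, and in CD22+ against α4β7− CD22− Retnlg was lower. S100a9 lay from 8.06 to 43.1 normalized counts in α4β7+ and from 0 to 6.37 in CD22+ libraries, and Mmp8 from 20.8 to 53.4 and from 1.86 to 11.04. S100a9 averaged 10.5 over the 12 libraries and passed the filter of 10 only through its α4β7+ level. Macrophage and dendritic cell markers, whose cells make Il6, Tnf, and Il1b, summed to 14878 to 16804, 13299 to 16851, and 13798 to 20224 normalized counts, with Adgre4 the highest, and none of the 16 was called in any comparison. T cell and innate lymphoid cell markers summed to 1894 to 2648, 1215 to 1572, and 1739 to 2145, and 5 of 14 were called lower in α4β7− CD22− and 1 in CD22+ against α4β7+. B cell and plasma cell markers summed to 17073 to 35240, 12482.5 to 35397.5, and 17370.5 to 38095, most of it Igha, and none of the 10 was called. Epithelial markers summed to 4067 to 8762, 3048 to 6089, and 2117 to 9897, and none of 13 tested was called. Stromal and endothelial markers summed to 10955 to 12449, 13135 to 14181, and 11978.5 to 13003.5, most of it Pecam1. Of these 12, 1 was called higher in CD22+ against α4β7+. Genes of the dissociation response summed to 241019 to 289417, 246208 to 270314, and 196869 to 226592, with 6 of 25 lower in α4β7− CD22−, 9 in CD22+ against α4β7+, and 1 in CD22+ against α4β7− CD22−. That list and the list of transcription genes share 7 genes (Fos, Fosb, Jun, Junb, Jund, Atf3, and Egr1), of which Jun and Jund were called lower in α4β7− CD22− against α4β7+, those and Fosb (−0.99) and Junb (−0.69) in CD22+ against α4β7+, and Jun in CD22+ against α4β7− CD22−. Of 13 eosinophil markers, 5 were called lower in α4β7− CD22− and 7 in CD22+ against α4β7+, and 1 in CD22+ against α4β7− CD22−. Among those called lower were Ccr3 (−0.72 and −1.22 on the log2 scale against α4β7+), Alox15 (−0.73 and −1.46), and Prg2 (−0.92 and −1.73). In neither comparison were Prg3 (−0.58 and −0.42), Cebpe (−0.30 and −0.54), Itgam (−0.10 and −0.23), Ptprc (0.07 and 0.02), Siglecf (0.05 and −0.04), or Csf2rb (0.24 and 0.13) called. The part of these shifts in the cytokine results was not tested.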

How the data were processed

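Total RNA from sorted SI eosinophils was sequenced in 12 libraries, 4 per subset, each from 2 pooled mice. Libraries were prepared from 3 ng of RNA with a stranded kit for small inputs. Per the submitters' processing notes, reads were trimmed with Trimmomatic 0.39, pseudoaligned with kallisto 0.46.1, and normalized with DESeq2 1.38.2, and the builds named are GRCm38 and mm10. The file holds 1 column per library of signal values as the authors deposited them, namely estimated counts after that normalization. Between 25.9% and 59.3% of the low values of a library lay within 5% of a whole multiple of the value of 1 read, so whole reads were not recovered and no count test was run. Estimated reads were 13858261 to 17321909 per library, and floors cover counting error only.

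The test was limma (version 3.58.1, under R 4.3.3), with 3 subsets in 1 model and a variance trend, of log2(normalized count + 1) in genes whose mean was above 10. Fold changes are on that scale, which understates the change of low genes. P-values were two-sided and adjusted by Benjamini-Hochberg over 15249 genes in each comparison. A call needed a fold change of 1.5 or more and an adjusted p not above 0.05. The contrast of α4β7− CD22− with the midpoint of the other subsets had no fold threshold. The fit was tested on simulated data with a spread that was set and not taken from these libraries. It called 49.5% of the genes given a log2 fold change of 1 and 98% of those given 2. Of 15049 unchanged genes it called 7. Of the gene identifiers, 35968 matched GENCODE vM21, which gave coordinates, lengths, and UTRs, and promoters came from RefSeq. Tables were made with pandas 2.3.3 in Python 3.11.15.

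The members and the other gene lists were chosen with earlier results of these data known, so no list was tested. All members are named. From each other list, the 3 genes with the largest change among those called with a mean of at least 50 are named per comparison and direction. Tested genes within 100000 bases of a member are counted and some are named, and Il1r1, Il1rap, Casp1, Il5, Lif, Ltb, and the genes of the Il4 cluster were named after their values were seen. The alternatives were pseudocounts of 0.1 and 10, no filter and a filter at 50, scaling to the 75th percentile, quantile normalization, no trend, a model of each pair of subsets alone, a replicate block, and each library left out in turn. As a check of pairing by replicate number, which the sources do not state, deviations from the subset means were correlated between same-numbered libraries. The values were 0.135 to 0.203 for α4β7− CD22− with CD22+, 0.043 to 0.137 for α4β7+ with α4β7− CD22−, and −0.059 to 0.182 for α4β7+ with CD22+, and in 10 of 12 pairs they exceeded those with any other number. Protein sequences were not analysed here, and the ratio of Il4 to Il13 was not computed because Il13 was mostly at 0.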

Additional observations from a re-analysis of the deposited data

Results flagged for a closer look

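Groups of 4 libraries were checked for a library far from the other 3, with a Dixon test at its 95% critical value. Of 66 groups, 6 held such a library, and chance gives about 1 in 20. Il13 in α4β7+ replicate 3 was at 17.6 normalized counts against 2.31 in the nearest library, and Il13 in CD22+ replicate 1 was at 1.96 with the others at 0, which is under the floor of 3 reads. Osm in α4β7+ replicate 1 was at 628 normalized counts, and the other 3 libraries lay from 458 to 477. The same library had the highest summed eosinophil markers of its subset, 185100 against 168300 in the nearest. The summed T cell and innate lymphoid cell markers of α4β7+ replicate 2 were 2648 against 2011 in the nearest. The summed dissociation response genes of α4β7− CD22− replicate 4 were 246200, and the other 3 libraries lay from 268700 to 270300. Without any of these libraries in turn, Il4, Il6, Il1b, Tnf, and Osm kept their calls in both comparisons with α4β7+.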

How the results depend on the processing

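Against α4β7+, Il4, Il6, Il1b, Tnf, and Osm kept their direction and call in both other subsets under all 9 alternatives and in all 12 fits with 1 library left out. In those fits, 5 members were called in α4β7− CD22− throughout, and 5 or 6 in CD22+ against α4β7+, with 1116 to 1254 and 1653 to 1853 genes called in all. The calls between CD22+ and α4β7− CD22− were less stable. Of the 3 members, 1 was called with a pseudocount of 10, 1 with no filter, and 0 to 3 with 1 library left out. With only those subsets in the model 0 were called, and Il6 was not tested there because its mean fell under the filter. Leaving out any of the 8 libraries compared left 0 or 1. All genes called there fell from 92 (32 higher and 60 lower) to 54 (13 higher and 41 lower) without the variance trend, and with 1 library left out they were 64 to 93.

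Directions that turned belonged to differences that were not called. In α4β7− CD22− against α4β7+, Il1rn changed by 0.0078 on the log2 scale after rescaling by the 75th percentile and 0.15 after quantile normalization, and Il1a by 0.0914 after quantile normalization. In CD22+ against α4β7+, Il1rn changed by 0.0937 after quantile normalization. In CD22+ against α4β7− CD22−, Il16 changed by 0.072 after quantile normalization. With 1 library left out, Il1rn in α4β7− CD22− against α4β7+ ranged from −0.0564 to 0.0571, and in CD22+ against α4β7− CD22− Il16 ranged from −0.0807 to 0.0253 and Tgfb1 from −0.0376 to 0.0701. The midpoint contrast of Il6 was called with a pseudocount of 10 (−1.39, adjusted p = 0.00327). The causes were not tested.

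Libraries carry replicate numbers 1 to 4 in each subset, and nothing states that a number marks the same mice. The correlations of same-numbered libraries exceeded 0.1 in all 4 pairs of α4β7− CD22− with CD22+. They did so in 2 of 4 pairs of α4β7+ with α4β7− CD22− and in 1 of 4 with CD22+. The same number correlated best in 4, 4, and 2 of the 4 pairs, in that order. The main model held no replicate term, so its p-values treat all libraries as unpaired, and only the replicate block takes the numbers as pairs. With the replicate block, 1254, 1843, and 100 genes and 5, 6, and 2 members were called in the 3 comparisons, Il4 being the member no longer called between CD22+ and α4β7− CD22− (adjusted p = 0.0877). The block changed no other call of a member in these 3 comparisons. The depth limits Il6 in CD22+ and Il13 in all subsets, where most libraries lie under the floor.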
